A study of Mus musculus with 4 samples.

Results

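The genes described here are 36 that build and run the lysosome, taken as a fixed list of cathepsins and other hydrolases, their cofactors, membrane proteins, subunits of the proton pump and 2 transcription factors. All 36 of 36 listed genes were found with at least 20 UMIs over both libraries, among 13657 such genes of the 32285 in the matrices. A UMI is a molecular tag that counts 1 captured RNA molecule. The RNA came from MC38 tumors, a transplanted mouse colon carcinoma, grown in bone marrow chimeras of the C57/BL6 strain that had been reconstituted for 6 weeks. One group held WT marrow cells and the other VISTA KO cells, which lack the inhibitory receptor encoded by Vsir in the cells derived from marrow. Tumors of 9 to 10 mm were pooled, WT and VISTA KO cells were told apart by the CD45.1 and CD45.2 forms of a surface protein, and viable CD11b+ cells were sorted as tumor infiltrating myeloid suppressor cells. Which form marked which genotype, and which stretch of Vsir was deleted, was not stated in the labels used. Each group was 1 library, so no test could be run, no p-value is given and the spread between tumors or mice is not known.

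Lysosomes are acidic organelles that break down proteins, sugars and lipids taken up by endocytosis or delivered by autophagy. Their hydrolases are made as precursors, carried in from the secretory route and switched on at low pH, which a proton pump of many subunits (the V-ATPase) keeps up across the membrane. In macrophages and dendritic cells the same enzymes digest engulfed cells and cut antigens for presentation, and TFEB and TFE3, related transcription factors, are known to raise many of these genes together through a short E-box motif.

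That motif was looked for in the promoters, since genes that share it could be compared with those that do not. Windows from 250 bases before to 50 bases after a start were at hand in RefSeq, build GRCm38.p6, for 30 members; Ctsb, Ctsh, Npc1, Atp6v0d2, Atp6v1b2 and Atp6v1h had none. The core CACGTG, which reads the same on both strands, was in a window of 10 of the 30 (33.3%), against 8.09% of 27025 genes and 25% of 80 other lysosomal genes. The longer TCACGTGA, which contains the core, was in 5 of the 30 (16.7%), namely Ctsa, Ctsd, Mcoln1, Atp6v0d1 and Atp6v1a, against 1.12% of all genes. Lamp1, Glb1, Gaa, Lgmn and Ctsl held the core without the longer form. A match is a description of the letters, not a binding site. The 250 bases before the start are shown, 5′ to 3′, for 4 members with the motif, an aspartic protease, a channel, a membrane glycoprotein and a pump subunit, and for the 2 members with the broadest difference between the libraries, Psap and Ctss, which held none. Capitals mark each CACGTG and, where present, the flanking bases of TCACGTGA. Ctsd (chr7:142387828-142388077, minus strand) held the core 2 times, Mcoln1 (chr8:3500269-3500518, plus strand) 2 times, Lamp1 (chr8:13158911-13159160, plus strand) 4 times and Atp6v1a (chr16:44139260-44139509, minus strand) 1 time. Psap lies at chr10:60277378-60277627, plus strand and Ctss at chr3:95526536-95526785, plus strand.
Ctsd: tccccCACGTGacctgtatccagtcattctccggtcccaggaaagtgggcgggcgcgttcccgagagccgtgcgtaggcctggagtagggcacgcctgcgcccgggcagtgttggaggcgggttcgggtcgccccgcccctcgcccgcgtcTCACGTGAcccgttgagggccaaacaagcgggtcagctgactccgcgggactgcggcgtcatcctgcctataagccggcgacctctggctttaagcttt
Mcoln1: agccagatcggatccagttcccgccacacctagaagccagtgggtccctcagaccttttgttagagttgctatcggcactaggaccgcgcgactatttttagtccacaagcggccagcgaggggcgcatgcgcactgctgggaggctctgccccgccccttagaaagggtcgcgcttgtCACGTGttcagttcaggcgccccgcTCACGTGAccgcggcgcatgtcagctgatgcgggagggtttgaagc
Lamp1: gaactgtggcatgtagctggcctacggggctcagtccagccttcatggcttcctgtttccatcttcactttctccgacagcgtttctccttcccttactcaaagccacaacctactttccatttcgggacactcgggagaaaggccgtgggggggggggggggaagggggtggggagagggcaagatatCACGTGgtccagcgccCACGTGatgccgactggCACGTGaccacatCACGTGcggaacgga
Atp6v1a: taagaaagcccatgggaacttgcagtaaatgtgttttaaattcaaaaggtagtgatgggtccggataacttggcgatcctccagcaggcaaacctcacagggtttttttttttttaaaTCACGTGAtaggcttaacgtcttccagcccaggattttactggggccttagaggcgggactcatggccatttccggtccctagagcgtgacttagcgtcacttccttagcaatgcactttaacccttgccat
Psap: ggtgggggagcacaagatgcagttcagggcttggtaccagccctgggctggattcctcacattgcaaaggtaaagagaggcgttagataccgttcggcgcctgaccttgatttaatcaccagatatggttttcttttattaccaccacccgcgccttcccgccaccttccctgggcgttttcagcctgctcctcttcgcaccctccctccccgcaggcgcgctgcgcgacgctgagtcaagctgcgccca
Ctss: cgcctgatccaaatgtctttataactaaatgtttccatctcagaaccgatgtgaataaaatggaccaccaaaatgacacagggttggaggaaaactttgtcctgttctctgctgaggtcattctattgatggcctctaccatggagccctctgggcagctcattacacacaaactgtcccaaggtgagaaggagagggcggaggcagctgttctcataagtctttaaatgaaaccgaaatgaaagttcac
Lamp1, with 4 copies, was at 614 CPM (UMIs per 1000000) in monocyte-like cells of WT and 617 in those of VISTA KO. Members that passed the size rule in monocyte-like cells were found both with the core (Lgmn, Gaa and Mcoln1) and without it (Psap and Ctss among others). That a window holds no match says only that these letters are not in it.

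The WT library held 10241 barcodes with 61753547 UMIs and the VISTA KO library 15257 with 80366761, and 10193 and 15140 cells were kept, with medians of 4692 and 4212.5 UMIs. In the kept cells 46 barcode sequences occurred in both libraries. Cells fell into 23 clusters made without the lysosomal genes and named from markers, as monocyte-like (3125 WT and 2763 VISTA KO cells), macrophage-like (1132 and 2361), cDC2-like (455 and 672, a type of conventional dendritic cell), mature DC-like (173 and 261), neutrophil-like (403 and 79), NK cell-like (508 and 408) and smaller classes. Unnamed clusters held 20% of WT and 48.9% of VISTA KO cells, and a cluster with both neutrophil and macrophage markers held 18.3% and 5.07%. The sorted label of suppressor cells has no single marker here, and NK cell-like and T cell-like cells were present in the sort. Vsir itself was at 137 CPM in the WT library and 46.2 in the VISTA KO library, so its RNA was lower but still read. The 12 macrophage markers, none of them at 0, summed to 2335 and 3773 CPM in monocyte-like cells, to 856 and 1700 in cDC2-like cells and to 2552 and 4548 in mature DC-like cells, each higher in VISTA KO. Their sum in the NK cell-like class was 374 and 1705 CPM. Their part in the differences between the libraries was not tested.

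The members made up 1.86% of all UMIs of kept cells in WT and 2.22% in VISTA KO. Per class, the summed share in WT ran from 2.50% in macrophage-like cells through 1.60% in monocyte-like, 1.24% in mature DC-like, 1.10% in neutrophil-like and 1.01% in cDC2-like cells to 0.351% in NK cell-like cells. The VISTA KO shares were 2.79%, 1.87%, 1.45%, 1.06%, 1.19% and 0.559%. Of these 6 classes, macrophage-like cells were at the top and NK cell-like cells at the bottom in both libraries. The summed shares of cDC2-like and neutrophil-like cells changed places, but those of the median cell did not. In WT the median cell was at 0.96% in the cDC2-like and 0.933% in the neutrophil-like class. In VISTA KO these values were 1.14% and 0.952%. The mature DC-like median cell was at 0.955% in WT and 1.22% in VISTA KO. Among the unnamed clusters, the 2 with few UMIs per cell, cluster 5 led by Malat1 and cluster 8 led by Gm26917 and Dusp1, were also high, at 2.56% and 2.77% in WT and 2.86% and 2.76% in VISTA KO. Their median cell held 939 and 1067 UMIs in WT. Clusters 1 (255 WT and 2404 VISTA KO cells) and 4 (217 and 2020) were unnamed too. These clusters had 7 and 5 macrophage markers in at least 60% of their cells but are not part of the macrophage-like class. The members made up 1.99% and 2.09% of their UMIs in WT and 2.27% in each in VISTA KO.

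**Figure D1:**
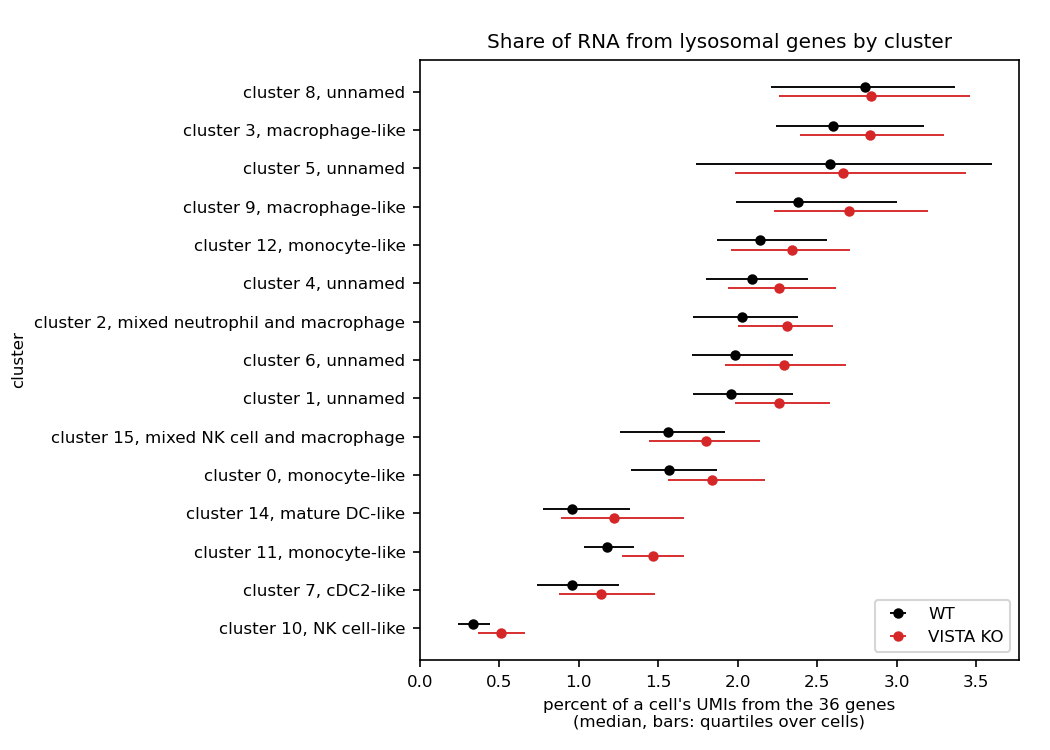
The percent of a cell's UMIs that came from the 36 lysosomal genes (horizontal axis) in each of the 15 clusters with at least 100 cells in both libraries (vertical axis), with points at the median cell and bars over the quartiles, WT and VISTA KO side by side. The median cell of the NK cell-like cluster 10 was at 0.332% in WT and 0.511% in VISTA KO, and that of the macrophage-like cluster 3 at 2.60% and 2.83%.

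Between classes of the same library, Cd63, Lgmn, Ctsl and Ctsd separated macrophage-like from monocyte-like cells most among the 34 members with enough UMIs in both. The size rule used throughout calls a member higher or lower where its log2 ratio lies at least 0.32 from 0 and its 95% interval leaves out 0; the interval comes from the UMI counts, so it covers counting error only. Of 36 members, 24 were higher and 0 lower in macrophage-like than monocyte-like cells of the WT library, and 25 higher and 1 lower in VISTA KO, where 34.8% and 36.5% of all genes were higher and 16.2% and 17.6% lower. The summed level was 0.64 higher on the log2 scale in WT and 0.57 in VISTA KO. Each captured RNA gives 1 UMI near its 3′ end whatever its length, so CPM values were not divided by gene length. How fully the RNA of each gene was captured and counted was not measured, so levels of different genes can be compared only roughly.

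Cd63, a tetraspanin of late endosomes and secretory lysosomes, was at 304 CPM in macrophage-like and 19.6 CPM in monocyte-like WT cells, a 15.4-fold difference, and at 318 and 25.8 CPM in VISTA KO cells, 12.3-fold. Lgmn, the protease legumain that cuts after asparagine and matures cathepsins, was 8.0-fold and 5.66-fold higher in macrophage-like cells of WT and VISTA KO. Ctsl, an endopeptidase, was 5.94-fold and 6.61-fold higher. Cd63 thus showed the widest gap between these classes, and the gap of Lgmn was narrower in VISTA KO, with 1565 and 1634 CPM in macrophage-like cells and 196 and 289 CPM in monocyte-like cells of WT and VISTA KO. The aspartic protease Ctsd was 4.94-fold and 4.44-fold higher, Ctsb, which cuts as an endopeptidase and from the carboxyl end, 3.98-fold and 3.19-fold, and Lipa, the acid lipase that frees cholesterol from its esters, 3.49-fold and 2.63-fold. Ctsc was 1.18-fold and 1.29-fold and Ctss 1.28-fold and 1.35-fold higher, so the cathepsins did not differ alike. Other members were nearly level between the classes. Psap, the precursor of the saposins that help hydrolases reach sphingolipids, stood at 0.956 of its monocyte-like level in WT and 0.893 in VISTA KO, and Npc2, which hands cholesterol to the membrane, at 1.08 and 1.09. The pump subunits did not go one way: Atp6v0c, of the membrane ring, was at 0.98 and 1.06 and Atp6v0d1 at 1.00 and 1.06, while Atp6ap1 was 1.53-fold and 1.39-fold higher in macrophage-like cells, past the size rule in both libraries. Atp6v1b2, a subunit of the catalytic head, stood at 0.805 and 0.719, and was the 1 member counted as lower in VISTA KO.

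**Figure D2:**
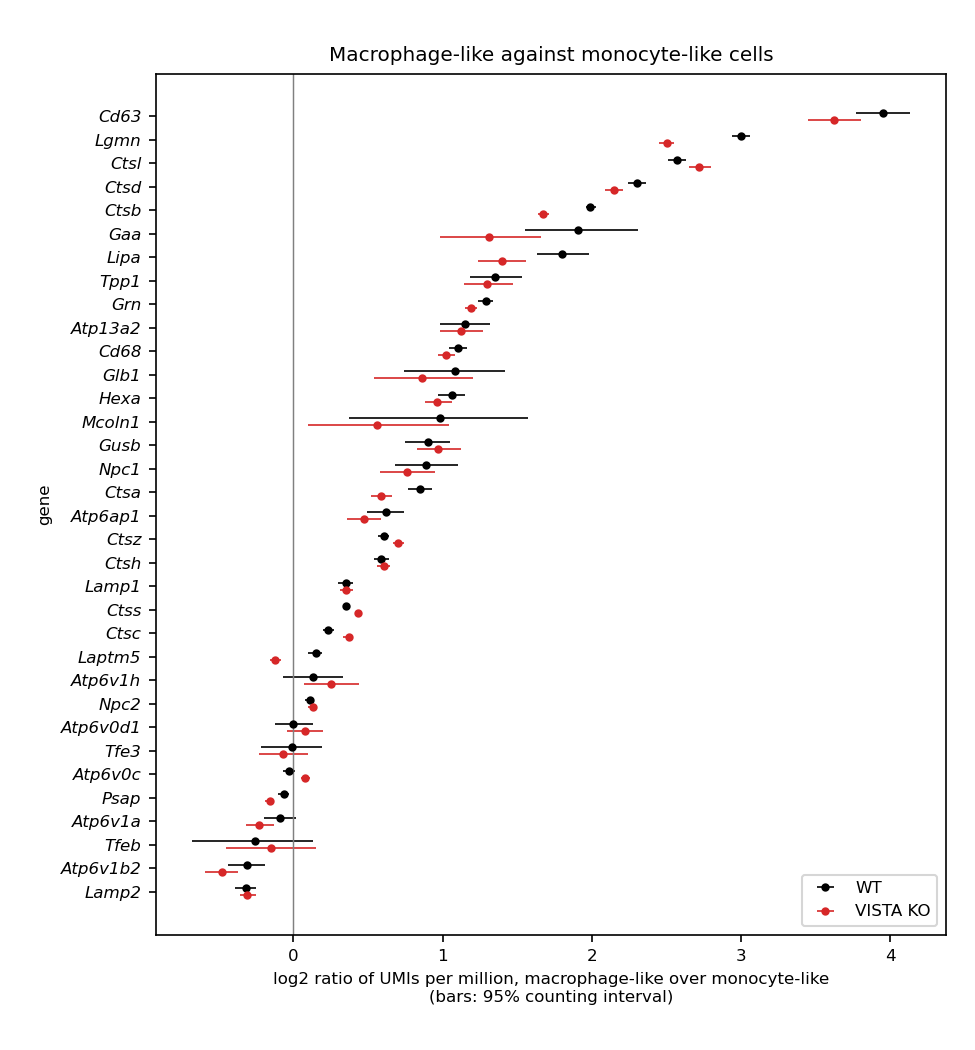
The level of each member in macrophage-like cells over that in monocyte-like cells (horizontal axis, log2 of the CPM ratio) for 34 members (vertical axis), WT in black and VISTA KO in red, with bars over the 95% counting interval; Ctsk and Atp6v0d2 are left out for few UMIs in monocyte-like cells. Cd63, Lgmn, Ctsl and Ctsd lie farthest to the right in both libraries, and most pump subunits lie near 0.

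Atp6v0d2, a pump subunit known from osteoclasts and macrophages, had 0 UMIs in monocyte-like WT cells, which allows up to 0.203 CPM, and 3.25 CPM in macrophage-like WT cells. The VISTA KO values were 0.277 and 2.63 CPM. Ctsk, the collagen-cutting cathepsin best known from osteoclasts, was similarly rare, at 2.83 and 3.23 CPM in macrophage-like cells of WT and VISTA KO.

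The other classes had patterns of their own. Relative to monocyte-like cells, 23 of 34 members were lower and 0 higher in cDC2-like cells of WT, against 19.1% and 17.4% of all genes. In VISTA KO 24 were lower and 0 higher, against 18.5% and 19.2% of all genes. In mature DC-like cells 2 of 34 members were higher in WT and 3 in VISTA KO, against 16.6% and 20.9% of all genes. Lower were 21 in WT and 15 in VISTA KO, against 21.7% and 20% of all genes. Cd63 stood out among those higher, at 818 CPM against 19.6 in WT, or 41.5-fold, and at 683 against 25.8 in VISTA KO, or 26.4-fold. Lgmn was also higher there, by 2.21-fold and 1.55-fold, and Ctsl was 1.43-fold higher in VISTA KO but at 0.75 of the monocyte-like level in WT. Mature DC-like cells thus had more Cd63 than the other 5 classes of the heat map. Ctsb, Ctsc, Ctss and Ctsa were below the monocyte-like level in both libraries, and Ctsh and Ctsz above it. Neutrophil-like cells had 4 of 34 members higher and 14 lower than monocyte-like cells in WT, against 13.5% and 31.8% of all genes, and likewise 4 and 14 in VISTA KO, against 8.7% and 11.3%. The 4 higher in WT, a share close to that of all genes, were Ctsd at 936 CPM, Cd63 at 203, Atp6v0c at 2268 and Tfeb at 31.2. With 79 VISTA KO cells no ratio between the libraries was formed for that class. Of the NK cell-like values, Ctsd at 533 CPM and Npc1, a cholesterol exporter of the membrane, at 46.7 CPM in WT were above the monocyte-like 221 and 27.5 by the size rule. Tfeb (18.7 against 12.3 CPM) and Mcoln1 (7.18 against 3.45) were also higher in NK cell-like cells, with intervals that hold 0, and Laptm5 was close (755 against 788). Glb1 (9.33 against 9.82 CPM), Atp6v1h (36.6 against 40.6) and Gaa (5.03 against 6.23) were little lower in NK cell-like than in monocyte-like cells of WT. For all of these genes NK cell-like cells do not serve as a low background.

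**Figure D3:**
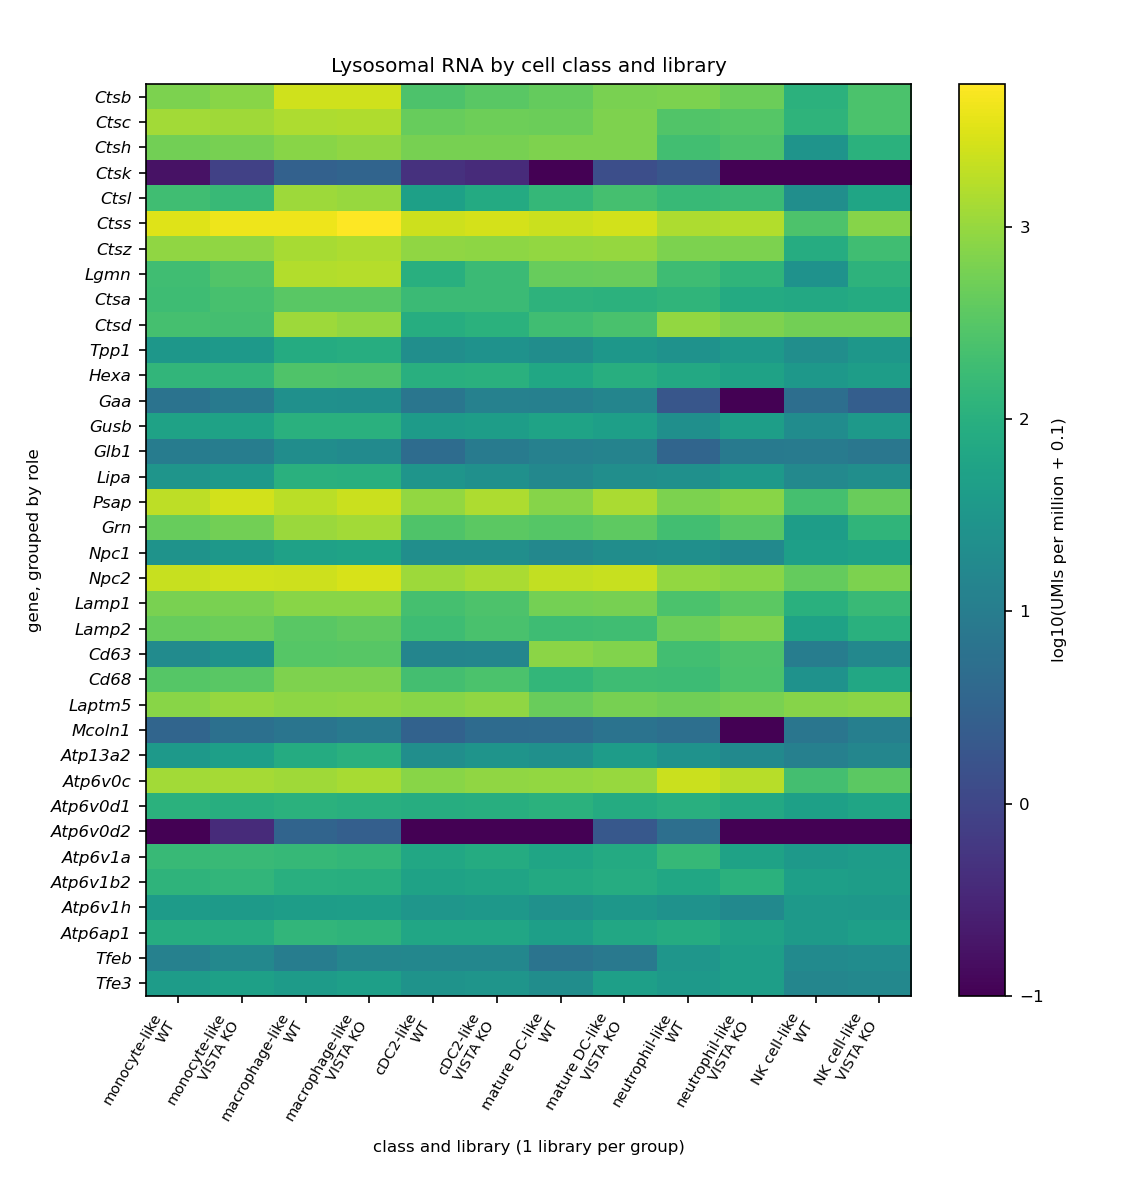
Heat map of the level of the 36 members (rows, grouped by role) in 6 classes of the WT and VISTA KO libraries (columns), coloured by log10 of CPM plus 0.1. The macrophage-like columns are brightest for Ctsb, Ctsd, Ctsl and Lgmn, the mature DC-like columns for Cd63, and the NK cell-like columns are darkest for most rows.

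Within the macrophage-like class, 2 clusters had at least 100 cells in both libraries. Cluster 9, led by Mmp12, Mmp13, Spp1 and Hmox1, was set against cluster 3, led by Ms4a7, Folr2 and C1q genes. In both libraries the same 6 members were higher in cluster 9 and the same 6 lower, out of 35 measured in both. Taken alone, WT had 7 of 35 higher and 6 lower, where 10.2% of all genes were higher and 17.7% lower. VISTA KO had 8 of 36 higher and 6 lower, where 9.78% and 17.4% of all genes were. The lower counts are thus near the shares of all genes and the higher counts above them. The values describe the members only. Higher in cluster 9 were Ctsl (1712 against 919 CPM in WT), Lipa (153 against 81.6), Psap (2312 against 1546), Npc1, the pump subunit Atp6v1a (219 against 115) and Atp6v0d2 (9.03 against 0.672). Higher in cluster 3 were Ctss (4719 against 3174), Ctsc (1692 against 931), Lgmn (1801 against 1242), the glucuronidase Gusb, Grn (1220 against 823) and Atp13a2. Of the 7 pump subunits only these 2 passed in both libraries, and Atp6ap1 was lower in cluster 9 in both (-0.26 and -0.24), short of the size rule.

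Between the libraries, the members that passed the size rule in monocyte-like, macrophage-like, cDC2-like, mature DC-like and NK cell-like cells were all higher in VISTA KO. In the cluster with both NK cell and macrophage markers 3 of 34 were higher and 2, Ctsl (-0.35) and Tfeb (-1.39), lower (5.17% and 4.09% of all genes). Over all kept cells 7 of 36 members were higher and 0 lower, against 14.6% of all genes higher and 7.73% lower. The median log2 ratio there was 0.16 for members and 0.08 for all genes. Monocyte-like cells had 9 of 34 higher and 0 lower (13.4% and 6.9% of all genes), with medians of 0.16 and 0.07. Macrophage-like cells had 4 of 36 higher and 0 lower (7.27% and 4.81%), with medians of 0.05 and 0.01. The share of higher members was thus well above that of all genes in monocyte-like cells. Over all kept cells and in macrophage-like cells it was nearer to that share.

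NK cell-like cells, lymphocytes in which most of these enzymes were scarce, served as the comparison for RNA that may come from outside a cell. Free RNA itself was not measured, and droplets with RNA of more than 1 cell were kept. In NK cell-like cells 15 of 33 members were higher in VISTA KO and 0 lower (9.93% and 2.29% of all genes), and the members' median was 0.59 against 0.11 for all genes. All 7 measured cysteine cathepsins were higher there: Ctss went from 263 CPM in WT to 762 in VISTA KO, Lgmn from 25.8 to 117 and Ctsb from 110 to 247. For Ctss, Lgmn and Ctsb the NK cell-like values thus differed in the same direction as the monocyte-like ones and by more. This did not hold for every member. Ctsl and Ctsc, higher in NK cell-like cells of VISTA KO, were not higher in its monocyte-like cells. Others, such as Tfeb, Laptm5, Npc1, Mcoln1 and Ctsa, differed by less in NK cell-like cells. With the mean UMIs of an NK cell-like cell of the same library taken off each cell, a setting chosen after the data had been seen, 1 member was higher and 3 lower in monocyte-like cells, and 1 and 2 in macrophage-like cells. Of members whose NK cell-like value is not given with them below, the NK cell-like log2 ratio was 1.17 for Ctsb, 1.08 for Ctsc, 1.93 for Ctsh, 1.13 for Ctsz and 2.15 for Lgmn. It was 0.69 for Lamp1, 0.91 for Lamp2, 1.35 for Cd68 and 0.86 for Gusb, all past the size rule. The ratios of Ctsa (0.19), Tpp1 (0.59), Hexa (0.37), Glb1 (-0.26), Lipa (0.33), Npc1 (0.18), Cd63 (0.64), Laptm5 (0.12), Mcoln1 (0.57) and Tfe3 (0.09) had intervals that hold 0, and Gaa, Ctsk and Atp6v0d2 had too few UMIs there.

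Of the cysteine cathepsins and legumain, 2 of 7 measured were higher in monocyte-like cells and 1 of 8 in macrophage-like cells of VISTA KO. The shares of all genes higher there were 13.4% and 7.27%. Ctss, the cathepsin that trims the invariant chain of MHC class II, was the most abundant member, at 3215 CPM in monocyte-like cells of WT and 4095 in those of VISTA KO, a log2 ratio of 0.35 (95% interval 0.33 to 0.37). In macrophage-like cells it stood at 4110 and 5515 CPM (0.42, 0.40 to 0.44), and in NK cell-like cells the ratio was 1.53. The log2 ratio of Ctss was above 0 in all 15 clusters with at least 100 cells in both libraries, and past the size rule in 6, from 0.11 in cluster 4 to 1.49 in the NK cell-like cluster 10; over these clusters 4.54% to 12.7% of all genes were higher. The large monocyte-like cluster 0 fell short of the size rule, at 3289 and 4049 CPM (0.30). Cluster 12, with the most Ctss of the class at 5200 and 5924 CPM, held 326 WT and 515 VISTA KO cells, so the class value also moves with this mix. With clusters weighted equally the monocyte-like ratio was 0.31, with NK cell-like UMIs taken off 0.20, and with each library clustered alone the macrophage-like ratio was 0.15, all short of the size rule. The monocyte-like call was lost under 4 of 11 other settings and the macrophage-like call under 2.

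Lgmn differed in monocyte-like cells, at 196 and 289 CPM (0.56, 0.49 to 0.64), and hardly in macrophage-like cells, at 1565 and 1634 CPM (0.06). Within the monocyte-like class it was at 162 and 241 CPM in cluster 0, which is led by Vcan and Chil3, and at 84.3 and 152 in cluster 11, but at 617 and 595 in cluster 12, which is led by interferon-induced Ifit genes. When each cell was thinned to 1000 UMIs, 16% of WT (95% interval 14.8 to 17.4) and 24.2% of VISTA KO monocyte-like cells (22.6 to 25.9) held an Lgmn UMI, against 42.5% and 54.6% unthinned. Thinning left out 38 WT and 100 VISTA KO cells with fewer UMIs. NK cell-like cells, thinned, were at 2.85% and 10.9%, so the share was above this background in both libraries and the libraries differed by a like number of points in both classes. With NK cell-like UMIs taken off, the monocyte-like Lgmn ratio was 0.16.

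Ctsb was at 633 and 785 CPM in monocyte-like cells (0.31) and at 2518 and 2501 in macrophage-like cells (-0.01), short of the size rule in both. Ctsc, which switches on granule serine proteases, was level in monocyte-like cells at 1211 and 1168 CPM (-0.05). Ctsh, an aminopeptidase, at 0.12, and Ctsz, a carboxypeptidase, at 0.01 were level there too. Dendritic classes moved more for some of these: Ctsb was at 258 and 339 CPM in cDC2-like cells (0.39) and at 418 and 615 in mature DC-like cells (0.55), and Ctsc at 479 and 676 in the latter (0.50). In cDC2-like cells 7 of 34 members were higher and 0 lower (10.8% and 4.84% of all genes), and in mature DC-like cells 11 of 33 and 0 (9.79% and 3.04%).

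Ctsl did not go one way. It was lower in VISTA KO monocyte-like cells, at 191 and 158 CPM (-0.27, -0.36 to -0.19; from -0.67 to 0.17 over other settings, the last with high doublet scores left out), short of the size rule over the class and past it in clusters 11 (-0.38) and 12 (-0.67). In cDC2-like cells it was higher, at 50.5 and 77.9 CPM (0.62), in mature DC-like cells at 142 and 224 (0.65), and in NK cell-like cells at 21.5 and 61.2 (1.48). Macrophage-like cells, with the most Ctsl, were at 1134 and 1043 CPM (-0.12), a ratio that ran from -0.48 to 0.44 over other settings. The direction thus differed between classes.

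Ctsk was higher over all kept cells, at 0.664 CPM in the WT library and 2.19 in the VISTA KO library (1.70, 1.23 to 2.25), from 41 WT UMIs in all. A single VISTA KO cell of cluster 5 held 73 of the 78 Ctsk UMIs of that cluster. Without that cell the VISTA KO level was 1.28 CPM (0.93, 0.41 to 1.51), and the count of 7 higher members over all cells stayed at 7. Most Ctsk UMIs of the macrophage-like class were in cluster 9, with 12 in WT and 33 in VISTA KO.

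None of the 3 aspartic and serine proteases passed the size rule in monocyte-like or macrophage-like cells. Ctsd was at 221 and 212 CPM in monocyte-like cells (-0.06) and at 1093 and 939 in macrophage-like cells (-0.22, -0.26 to -0.18), the latter from -0.48 to 0.08 over other settings. By cluster it was lower in cluster 3 (1046 and 817 CPM, -0.36) and in the unnamed cluster 8 (913 and 641, -0.51), level in cluster 9 (1293 and 1309, 0.02) and higher in mature DC-like cells (191 and 240, 0.32). Ctsa, a carboxypeptidase that also shields galactosidase, was at 186 and 228 CPM in monocyte-like cells (0.29) and Tpp1, a tripeptidyl peptidase, at 32.9 and 37.0 (0.17). Ctsd was level in NK cell-like cells, at 533.4 and 533.7 CPM.

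The glycosidases and the lipase had 2 of 5 higher in monocyte-like cells and 0 of 5 in macrophage-like cells, where their median was -0.07. The shares of all genes higher in these classes were 13.4% and 7.27%. Gaa, which breaks down lysosomal glycogen, was at 6.23 and 9.04 CPM in monocyte-like cells (0.54, 0.11 to 0.96), a low level with a wide interval, and the call was lost under 4 of 11 other settings. Lipa was at 29.1 and 37.3 CPM (0.36, 0.16 to 0.55), and fell short of the size rule under 6 of 11 other settings. Hexa, the alpha subunit of hexosaminidase, at 0.01, Gusb at -0.02 and the galactosidase Glb1 at 0.08 did not pass.

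Psap was the member with the broadest difference. In monocyte-like cells its level was 1859 CPM for WT and 2576 for VISTA KO (0.47, 0.45 to 0.49), in macrophage-like cells 1777 and 2300 (0.37, 0.34 to 0.40) and in cDC2-like cells 933 and 1429 (0.61). The mature DC-like levels were 747 and 1399 CPM (0.90). NK cell-like cells were at 222 and 447 CPM (1.01). Psap was higher in VISTA KO in 15 of 15 clusters and past the size rule in 14, the exception being the low-count cluster 8, at 3973 and 4288 CPM (0.11); the median over clusters was 0.46. After thinning, 82.2% of WT and 89.7% of VISTA KO monocyte-like cells and 76.3% and 84.6% of macrophage-like cells held a Psap UMI, against 99.3% and 99.5%, and 97.8% and 98.7%, unthinned. NK cell-like cells held one in 15.5% and 31.9% after thinning. With NK cell-like UMIs taken off, the log2 ratio was 0.37 in monocyte-like cells and 0.30 in macrophage-like cells, the latter below the size rule.

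**Figure D4:**
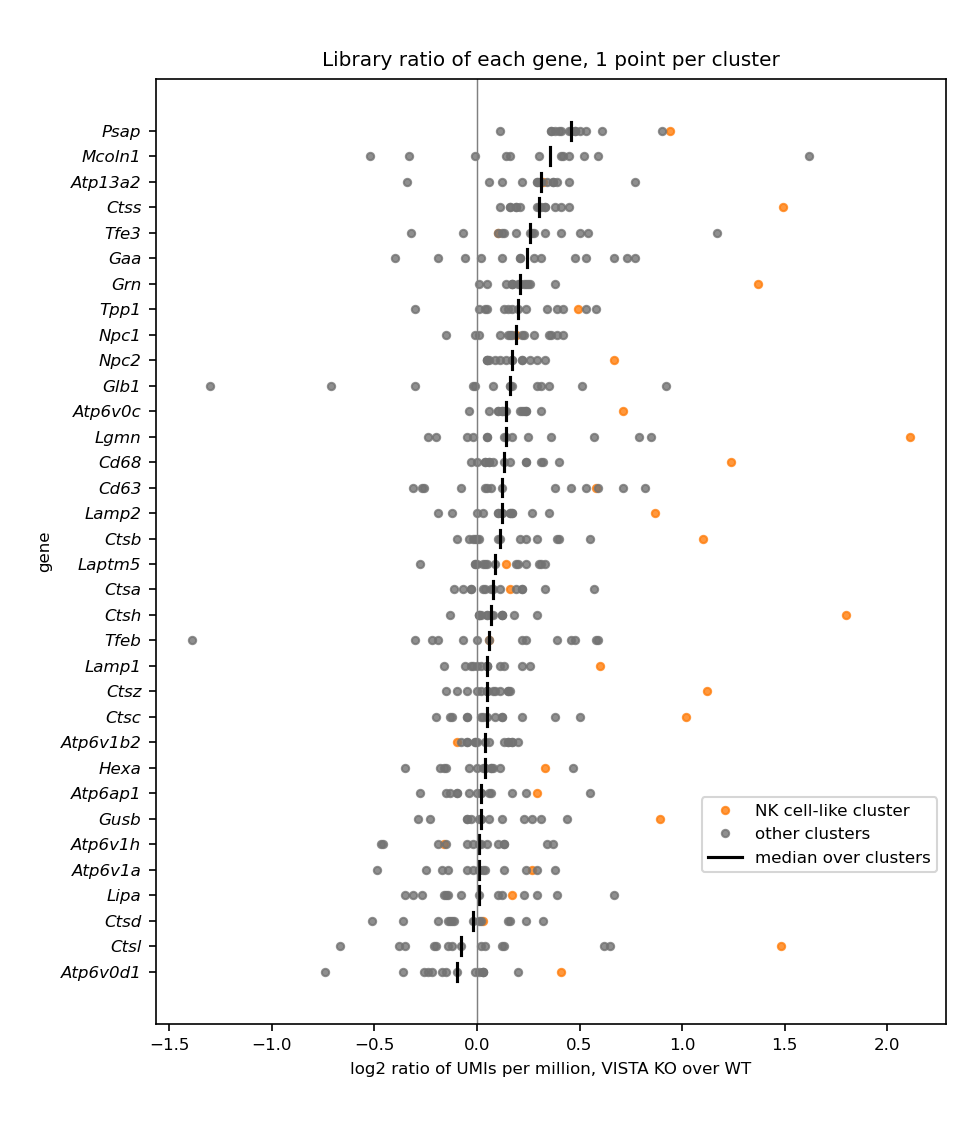
The log2 ratio of VISTA KO over WT (horizontal axis) for 34 members (vertical axis), with 1 point for each of up to 15 clusters, the NK cell-like cluster in orange and a bar at the median over clusters. All points of Psap and Ctss lie above 0, the points of Ctsl lie on both sides of it, and the orange point is often the highest.

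Psap lies close to the deleted gene. It spans chr10:60277628-60302600 in GRCm38.p6, and 44250 bases separate its end from the start of Vsir at 60346851. Neighbours with at least 20 UMIs within 1000000 bases of Vsir were counted, Psap included. By the size rule 3 of 12 were higher in monocyte-like and 2 of 15 in macrophage-like cells, where 13.4% and 7.27% of all genes were higher. The counts were 4 of 10 in cDC2-like and 5 of 13 in NK cell-like cells (10.8% and 9.93% of all genes). The macrophage-like count beyond Psap was 1 gene, Gm17455, which lies within the span of Vsir, from 3 and 23 UMIs (1.67, 0.30 to 4.41). Over all kept cells 4 of 20 were higher and 2 lower (14.6% and 7.73% of all genes). Of those higher, Cdh23, which overlaps Vsir, had the largest ratio, from 12 and 92 UMIs (2.46, 1.69 to 3.56). It had too few UMIs for a ratio in monocyte-like or macrophage-like cells. Slc29a3, a nucleoside exporter of the lysosomal membrane 281777 bases from Vsir, was at 92.1 and 124 CPM in monocyte-like cells (0.43, 0.32 to 0.54) and at 96.8 and 120 in macrophage-like cells (0.31). Pald1 was at 2.51 and 5.16 CPM in monocyte-like cells (1.03). Vsir was at 138 and 36.2 CPM in monocyte-like cells (-1.93) and at 155 and 79.7 in macrophage-like cells (-0.96). The part of the position next to the deleted gene in the Psap values was not tested, and it cannot be told apart from genotype in these 2 libraries.

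**Figure D5:**
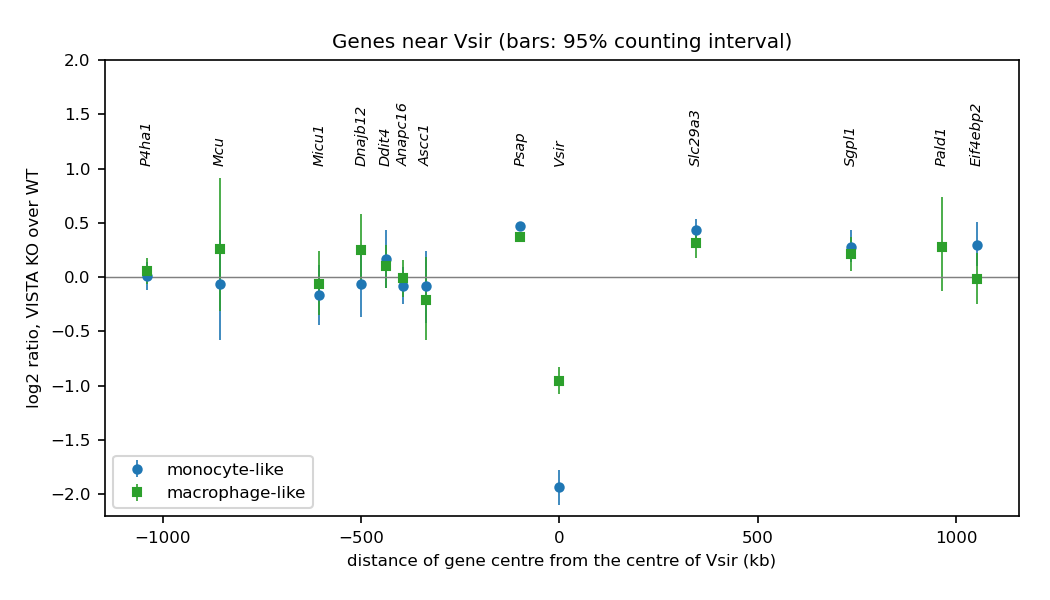
The log2 ratio of VISTA KO over WT (vertical axis) of genes with at least 100 UMIs that lie within 1000000 bases of Vsir, plotted by distance from Vsir (horizontal axis), with bars over the 95% counting interval, in monocyte-like and macrophage-like cells. Vsir lies lowest, at -1.93 and -0.96, and Psap, 44250 bases away, lies at 0.47 and 0.37.

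The other soluble cofactors were higher in VISTA KO by less. Grn, progranulin, whose fragments act in the lysosome, was at 436 and 532 CPM in monocyte-like cells (0.29) and at 1068 and 1215 in macrophage-like cells (0.19). Npc2 was at 2215 and 2556 (0.21) and at 2388 and 2791 (0.22). Grn and Npc2 were above 0 in all 15 clusters, yet each passed the size rule in only 2. In cDC2-like cells both passed it, at 0.38 and 0.33, and the NK cell-like ratios were 1.53 and 0.65.

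Of the membrane proteins, 3 of 7 were higher in monocyte-like cells and 1 of 7 in macrophage-like cells, against 13.4% and 7.27% of all genes. Atp13a2, a polyamine exporter of the lysosomal membrane, was at 37.0 and 47.8 CPM in monocyte-like cells (0.37, 0.19 to 0.55) and at 82.3 and 104 in macrophage-like cells (0.34, 0.20 to 0.48), and above 0 in 14 of 15 clusters. In NK cell-like cells it was at 11.5 and 15.1 CPM (0.38), with an interval of -0.66 to 1.46 that holds 0. It was past the size rule in 4 clusters. Its monocyte-like call was lost under 5 of 11 other settings, with a ratio from 0.23 to 0.58, and its macrophage-like call under 7 of 11, with a ratio from 0.06 to 0.34. Cd63 was at 19.6 and 25.8 CPM in monocyte-like cells (0.40, 0.15 to 0.64), a call lost under 4 of 11 other settings and at 0.02 with NK cell-like UMIs taken off. It was at 304 and 318 in macrophage-like cells (0.07) and at 818 and 683 in mature DC-like cells (-0.26, -0.39 to -0.13). Mcoln1, the calcium channel whose opening activates TFEB, was scarce, at 3.45 and 5.63 CPM in monocyte-like cells (0.70, 0.14 to 1.27). The abundant structural glycoproteins were close to level: Lamp1 at 614 and 617 CPM (0.01), Lamp2 at 429 and 476 (0.15) and the scavenger receptor family member Cd68 at 308 and 333 (0.11). Laptm5, which lowers antigen receptors by sending them to lysosomes, was at 788 and 973 CPM in monocyte-like cells (0.30) and at 873 and 894 in macrophage-like cells (0.03).

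The proton pump showed no member past the size rule in either class. Its median log2 ratio was 0.05 over 6 subunits in monocyte-like cells and -0.09 over 7 in macrophage-like cells, next to 0.07 and 0.01 for all genes. Atp6v0c, the most abundant subunit, was at 1192 and 1273 CPM in monocyte-like cells (0.09) and at 1168 and 1344 in macrophage-like cells (0.20). Atp6v0d1, of the stalk, was at 108 and 94.6 CPM in monocyte-like cells (-0.19), and Atp6v1a and Atp6v1b2, of the catalytic head, at 0.05 and 0.14. Atp6v1h, which joins head and membrane part, was at -0.08 and Atp6ap1, an accessory subunit, at 0.05. Across the 15 clusters Atp6v0d1, Atp6v1b2 and Atp6v1h passed the size rule in none. The subunits that passed it anywhere were Atp6ap1 in mature DC-like cells (48.0 and 71.0 CPM, 0.55), Atp6v0c in NK cell-like cells (215 and 349 CPM, 0.69) and Atp6v1a, lower in the low-count cluster 8 (-0.49). Of the 11 measured subunits outside the member list, 2 were higher and 0 lower in monocyte-like cells (median -0.10) and 0 and 0 in macrophage-like cells (median -0.11). Of all genes, 13.4% were higher and 6.9% lower in monocyte-like cells, and 7.27% and 4.81% in macrophage-like cells.

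The transcription factors were low. Tfeb was at 12.3 and 16.2 CPM in monocyte-like cells (0.41, 0.10 to 0.71) and at 10.2 and 14.7 in macrophage-like cells (0.51, 0.13 to 0.94), past the size rule in both, and at 18.7 and 20.1 in NK cell-like cells (0.11). The monocyte-like call was lost under 6 of 11 other settings and the macrophage-like call was lost under 5 of 11. Over the whole of the kept cells it was at 14.3 and 15.1 CPM (0.08). Tfe3 was at 40.8 and 49.0 CPM in monocyte-like cells (0.26) and at 40.4 and 46.8 in macrophage-like cells (0.21), and past the size rule in mature DC-like cells, at 20.7 and 48.2 (1.17). Of the 6 classes of the heat map, neutrophil-like cells held the most Tfeb, at 31.2 and 44.7 CPM. The VISTA KO class had 111882 UMIs in all, so that 3 UMIs already make 26.8 CPM there, and its value rests on few UMIs.

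The wider lysosomal gene set was read from a list of 106 other genes, 104 of them in the matrices. In monocyte-like cells 19 of 91 measured were higher and 4 lower (median 0.13), against 13.4% and 6.9% of all genes. In macrophage-like cells 10 and 5 of 91 (median 0.03) were near the 7.27% and 4.81% of all genes. Other hydrolases had 12 of 37 higher and 2 lower in monocyte-like cells and 6 and 2 of 37 in macrophage-like cells. Highest in monocyte-like cells were Sgsh, a sulfatase of heparan sulfate, at 3.45 and 6.92 CPM (0.99), and Galc, which cuts galactosylceramide, at 4.74 and 8.02 (0.76). Next came the acid phosphatase Acp5 at 5.69 and 8.95 (0.65) and the mannosidase Manba at 5.82 and 9.04 (0.63). All 4 were below 10 CPM in both libraries. In macrophage-like cells the highest were Cst7, an inhibitor of cathepsins, at 4.67 and 9.02 CPM (0.92), Acp2 at 51.9 and 83.6 (0.68), Ctso at 21.6 and 31.1 (0.52) and Manba at 7.77 and 11.3 (0.52).

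The lowest values were of larger size. Ctse, an aspartic protease of endosomes, was at 45.9 and 2.86 CPM in monocyte-like cells of WT and VISTA KO (-3.96, -4.57 to -3.48), from 677 and 31 UMIs, at 20.9 and 0.751 in macrophage-like cells (-4.67) and at 35.2 and 5.03 in NK cell-like cells (-2.61). Rnaset2b, an acid ribonuclease, was at 64.3 and 25.5 CPM in monocyte-like cells (-1.33), at 85.1 and 35.8 in macrophage-like cells (-1.25) and at 210 and 61.2 in NK cell-like cells (-1.77). It has a near copy, Rnaset2a, with which reads can be shared, so its value is uncertain. The next lowest in monocyte-like cells were Smpd1 (-0.53, interval -1.19 to 0.06) and Lamtor2 (324 and 238 CPM, -0.45), and in macrophage-like cells Serpinb6a (60.2 and 34.3 CPM, -0.81) and Rraga (57.0 and 44.6, -0.36). Ctse lies on chromosome 1, 6387351 bases from Ptprc, the gene of CD45, whose 2 forms marked the cells of the 2 genotypes; the part of that marking in the Ctse values was not tested.

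Signs of RNA quality moved with the same contrast. Malat1, a nuclear RNA, was at 7489 and 10686 CPM in monocyte-like cells and at 10309 and 13248 in macrophage-like cells, and mitochondrial RNA made up 1.13% and 1.31%, and 0.749% and 0.851%, of UMIs. Neutrophil markers summed to 492 and 274 CPM in macrophage-like cells. Their part in the member values was not tested.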

How the data were processed

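Gene expression was measured by 10x Genomics 3′ v3.1 single-cell sequencing in a WT and a VISTA KO library of 1 sample each; the antibody tag libraries were not used here. The authors deposited counts, whole-number UMI counts per gene and cell barcode, written by Cell Ranger 5.0.0 per the file headers; per the submitters' processing notes the build was mm10 and Seurat 4.0 was used, for a step not given in the sources used here. Cells with at least 200 genes, 500 UMIs and at most 10% mitochondrial UMIs were kept (99.5% of WT and 99.2% of VISTA KO barcodes). Doublets were kept: Scrublet called 0 WT and 1 VISTA KO droplets, against 8.19% and 12.2% expected, which means that it did not work on these data. Clustering used the cells of both libraries at once (scanpy 1.11.5, leidenalg 0.10.2; 2000 variable genes per library, 30 components, 15 neighbours, resolution 1) with the members, the other lysosomal genes, Vsir and technical genes kept out. A cluster was named from at least 3 markers that were 1.5-fold above other cells and in 20% of its cells, thresholds set after clusters had been seen; names end in -like because they rest on marker RNA alone.

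For each class and cluster of a library, UMIs were added up per gene and scaled to 1000000 (CPM). The log2 ratio has a pseudocount of 1 UMI, an exact conditional binomial interval, and was formed for classes with at least 100 cells in both libraries and genes with at least 20 UMIs. Shares of cells have exact binomial (Clopper-Pearson) intervals, and 0 counts an upper limit of 3 UMIs. Intervals cover counting error only. The method was also tried on simulated counts with known ratios. These were drawn with counting error only, as the interval assumes, so they cannot show how it does where UMIs gather in few cells. Members and lists were chosen with earlier results of these data known. Every member is accounted for; other lysosomal genes were named for the 4 highest and 4 lowest ratios in monocyte-like and in macrophage-like cells, with a minimum of 100 UMIs. In summed droplets, more cells of a kind and more RNA per cell cannot be told apart.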

Additional observations from a re-analysis of the deposited data

Results flagged for a closer look

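The members named here passed the size rule in opposite directions in different classes or clusters of the same contrast, VISTA KO over WT. With 1 library per group none of these differences between classes was tested. Ctsl was higher in NK cell-like cells and their cluster 10 (log2 ratio 1.48), in cDC2-like cells, which are cluster 7 (0.62), and in mature DC-like cells, which are cluster 14 (0.65). It was lower in the monocyte-like clusters 11 (-0.38) and 12 (-0.67) and in cluster 15, which holds both NK cell and macrophage markers (-0.35). Ctsd was higher in mature DC-like cells, cluster 14 (0.32), and lower in the macrophage-like cluster 3 (-0.36) and the low-count cluster 8 (-0.51). Tfeb was higher in macrophage-like (0.51) and monocyte-like cells (0.41) and in cluster 0 of the latter (0.59). It was lower in cluster 15 (-1.39), at a level under 20 CPM in both libraries. In VISTA KO it was at 6.33 CPM in cluster 15, where 3 UMIs already make 1.9 CPM, so this value rests on few UMIs.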

How the results depend on the processing

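No paired analysis was possible because there was 1 library per genotype. The count of members higher over all kept cells, 7, was 1 at a 1.5-fold rule, 15 with mixed and unnamed clusters left out, and 3 with VISTA KO cluster shares set to those of WT, the last chosen after seeing the data; other settings gave 5 to 10, and 0 were lower throughout. In monocyte-like cells 9 higher became 1 at 1.5-fold, 16 with high doublet scores left out, 4 with clusters weighted equally and 1 with NK cell-like UMIs taken off, and 0 lower became 1 with ratios centred on the median gene, 1 with lysosomal genes kept in clustering, 1 with clusters weighted equally and 3 with NK cell-like UMIs off. Taking those off was chosen after seeing the data; it turned Tfeb there from 0.41 to -0.20 with an interval far to both sides of 0, in a gene at no lower a level in NK cell-like cells, and left 5 members (Ctsk, Ctsd, Npc1, Mcoln1 and Atp6v0d2) unmeasured. In macrophage-like cells 4 higher became 0 at 1.5-fold, 11 with each library clustered alone, 2 with the stricter cell filter, 2 with high doublet scores left out and 1 with NK cell-like UMIs off, and 0 lower became 1 at resolution 2, 4 without high doublet scores, 2 after thinning and 2 with NK cell-like UMIs off. The summed macrophage-like over monocyte-like log2 ratio kept its direction; in WT (0.64) it was 0.61 at resolution 2, 0.71 with libraries alone, 0.70 with lysosomal genes in clustering, 0.75 with the stricter filter, 0.59 without high doublet scores, 0.69 after thinning and 0.60 with clusters equal, and in VISTA KO (0.57) it was 0.48, 0.54, 0.59, 0.62 and 0.35 in the first 5 of these. Psap kept its monocyte-like call in all of these but the 1.5-fold rule; its ratio stayed between 0.37 and 0.54 in monocyte-like and 0.30 and 0.61 in macrophage-like cells, Ctss between 0.20 and 0.48 and between 0.15 and 0.45. The cause of these shifts was not tested. High doublet scores were those of Scrublet, the caller that did not work on these data. Leaving out the 835 WT and 1848 VISTA KO droplets with the highest scores also changed which cells carried the class names. Monocyte-like cells of VISTA KO went from 2763 to 3889 and macrophage-like cells from 2361 to 4465. Unnamed cells went from 7399 to 2852. Centring moved all ratios by 0.08, 0.07 and 0.01 over all, monocyte-like and macrophage-like cells. Members under about 10 CPM, such as Gaa, Mcoln1 and Atp6v0d2, were limited by depth.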
